A study of Homo sapiens with 3 samples.

Results

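The 9 genes described here encode REST and corepressors that act with it or with hormone receptors: REST, RCOR1, KDM1A, SIN3A, HDAC1, HDAC2, NCOR1, TBL1XR1 and NRIP1. They were chosen by name, and every gene spot that carried one of these names on the arrays was used. They had 14 of the 58201 gene probes and made up 9 of the 43317 gene names. RNA came from 22RV1, a SPINK1-positive prostate cancer cell line, transduced with a lentiviral hairpin vector and kept in puromycin in RPMI-1640 with fetal bovine serum. Stable 22RV1-shSPINK1 lines carried 1 of 3 hairpins against SPINK1, and the control, 22RV1-shSCRM, carried a scrambled hairpin. On each of 3 two-color arrays, 1 per hairpin, Cy5-labelled shSPINK1 RNA was set against Cy3-labelled shSCRM RNA. A log2 ratio below 0 therefore means less transcript in the knockdown cells. No array had swapped dyes, so differences that a dye makes at a probe and differences that SPINK1 silencing makes cannot be told apart.

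REST is a zinc finger repressor that binds a long DNA element, RE1, near neuronal genes and keeps them silent outside neurons. Its N terminus recruits SIN3A, a scaffold for the histone deacetylases HDAC1 and HDAC2. Its C terminus recruits RCOR1 (CoREST), which joins these deacetylases to the histone demethylase KDM1A (LSD1). NCOR1 is the scaffold of another deacetylase complex, which nuclear receptors use to repress genes, and TBL1XR1 is a WD-repeat subunit of it. NRIP1 (RIP140) binds nuclear receptors and represses through deacetylases and CtBP proteins. In prostate tumors, loss of REST is known from neuroendocrine disease, and the study asked how REST and androgen signaling hold SPINK1 down. The comparison here runs the other way: whether the transcripts of the corepressors differ once SPINK1 is silenced.

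The silenced gene checks the labels. Its probe had a Cy3 brightness of 17100, 15200 and 16100 and a Cy5 brightness of 1000, 827 and 709 for hairpins 1, 2 and 3. The log2 ratio of SPINK1 was -3.71, -3.65 and -3.89, so each hairpin line had far less of the transcript than the control. In RNA of a whole culture, fewer cells that express a gene and less RNA per cell cannot be told apart.

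The probes are 60-base oligonucleotides, and those on which the results turn are shown from 5′ to 3′ with their hg19 positions as the array's annotation gives them. REST had 1 probe, at chr4:57798055-57798114 on the plus strand. Its bases come from the part of the transcript that encodes the end of the protein, where the degrons lie that casein kinase 1 marks for destruction.
REST A_23_P167081: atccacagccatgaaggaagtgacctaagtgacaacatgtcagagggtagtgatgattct
TBL1XR1 had 2 probes on the minus strand, which gave opposite values. The first starts at base 1717 of its RefSeq transcript (chr3:176744163-176744222). The other starts at base 5554 (chr3:176739478-176739537), and its first 30 bases are shown.
TBL1XR1 A_33_P3348614: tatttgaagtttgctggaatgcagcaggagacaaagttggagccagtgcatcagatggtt
TBL1XR1 A_23_P212552: tggcagcaaatgccaacattttgtggaata
HDAC2 also had 2 probes on the minus strand. The first starts at base 1721 and its 60 bases span 679 bases of the genome (chr6:114262195-114262873), so it crosses an intron. The other starts at base 6572 (chr6:114257344-114257403), and its first 30 bases are shown.
HDAC2 A_23_P122304: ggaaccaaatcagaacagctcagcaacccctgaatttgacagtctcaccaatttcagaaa
HDAC2 A_33_P3309924: ggccatgtaacaagcagagcaacatgtatt
NCOR1 had 3 probes, 2 of which overlap by 18 bases of the genome on the minus strand (chr17:16068377-16068436 and chr17:16068335-16068394). The overlap is in capitals. Counted from the first base of the overlap, the second probe differs from the first by 1 substitution, C12T.
NCOR1 A_24_P204214: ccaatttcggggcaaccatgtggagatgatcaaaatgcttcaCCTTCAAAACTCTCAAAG
NCOR1 A_24_P237661: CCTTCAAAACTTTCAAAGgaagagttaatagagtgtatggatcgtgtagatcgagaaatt
The array's annotation gives the second of these probes a further transcript, which RefSeq names NCOR1P1, a transcribed pseudogene, so signal at this probe may come from either. No run of 20 bases was shared between any of the 14 probes and a probe of another gene name among all 58201.

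REST itself was dim. Its probe had a Cy3 brightness of 64.1, 51.8 and 51.6 for hairpins 1, 2 and 3 over local backgrounds of 20 to 21, and a Cy5 brightness of 50.1, 31.5 and 33.3 over backgrounds of 15 to 16. The software flagged it as well above background with either dye on each array. The log2 ratio was 0.16, 0.00055 and 0.066, with a mean of 0.075 ± 0.080 (SD, n = 3 arrays). REST was thus at or slightly above the control level with each hairpin, though its mean was -0.019 with median centring in place of loess, and the adjusted p of limma's moderated test over all genes was 0.397. The 95% interval ran from -0.051 to 0.20. The offset of 50 added to both channels before the logarithm draws the ratios of dim probes toward 0; without it the mean was 0.21, with an adjusted p of 0.234.

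The CoREST pair gave no call. RCOR1, the scaffold that ties REST to the demethylase, had log2 ratios of -0.092, -0.13 and -0.046 at a Cy3 brightness of 564 to 607. These were slightly below 0 with each hairpin, and the mean of -0.090 ± 0.043 (SD, n = 3 arrays) had an adjusted p of 0.273 by limma. KDM1A, the demethylase, was dim, with a Cy3 brightness of 70 to 75.8 and a Cy5 brightness of 42.9, 53.7 and 38.1. Its log2 ratio was -0.15, 0.21 and -0.16. Hairpin 2 went against the other two, and the SD of 0.21 was larger than that of 93.8% of the genes tested, where the median SD was 0.086. The mean of -0.032 had an adjusted p of 0.829, and it was above 0 when hairpin 1 or hairpin 3 was left out.

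Among SIN3A and its deacetylases, HDAC2 alone was called, and only at the brighter of its probes. SIN3A, the scaffold, had log2 ratios of -0.0066, -0.068 and 0.082 at a Cy3 brightness of 467 to 514, with an adjusted p of 0.981. HDAC1 was the brightest of the 9 genes' probes and the only one printed in 10 spots per array. Its mean Cy3 brightness over these spots was 6226, 5970 and 6090, and its mean Cy5 brightness was 4600, 3700 and 3908. The log2 ratio of HDAC1 was -0.11, -0.20 and -0.090, and the highest single spot stood at -0.046, -0.15 and -0.022, so every spot of the 3 arrays lay below 0. The single spots of an array had an SD of 0.053, 0.039 and 0.045. These do not compare directly with the SD of 0.060 between the arrays, which is that of means over 10 spots. The spots of an array share the same RNA and are not replicates of a hairpin. The mean of -0.14 had an adjusted p of 0.126 by limma and was not called.

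HDAC2, the paralog of HDAC1 that sits in the same complexes, had a Cy3 brightness of 5200, 4760 and 4870 at the probe that crosses an intron, and a Cy5 brightness of 3300, 2620 and 2800. The log2 ratio was -0.32, -0.36 and -0.24, below 0 with each hairpin. The mean of -0.31 ± 0.062 (SD, n = 3 arrays) had a 95% interval from -0.43 to -0.19 and an adjusted p of 0.0137 by limma. The other probe of HDAC2, near the far end of the transcript, was dim, with a Cy3 brightness of 66.7, 59.6 and 54.3 and a Cy5 brightness of 44.3, 40.6 and 39.6. Its log2 ratio was 0.0066, 0.10 and 0.15, at or above 0 with each hairpin, and the mean of 0.086 had an adjusted p of 0.325 over all probes tested. The bright probe stood lower than the dim probe by 0.32, 0.47 and 0.39 on the 3 arrays. The test of that difference gave an adjusted p of 0.00915 by limma over all genes with more than 1 usable probe. The call for HDAC2 ended when hairpin 2 (adjusted p 0.0508) or hairpin 3 (0.0563) was left out, when the offset was left out (0.0798) and with the mean of its probes (-0.11, adjusted p 0.178). It also ended with the Feature Extraction ratios (adjusted p 0.152) and a one-sample test per gene (0.224). In the gene values that the authors deposited the mean was 0.033 (adjusted p 0.854 by limma). The call was kept in 6 of the 13 alternatives tried.

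**Figure D1:**
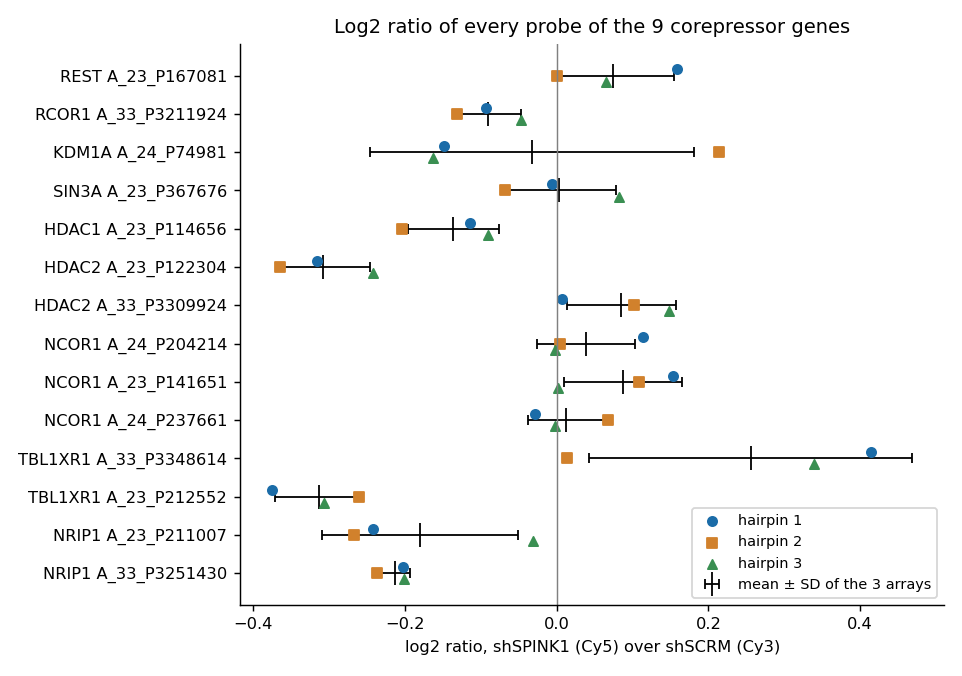
Log2 ratio of shSPINK1 over shSCRM (horizontal axis) for each of the 14 probes of the 9 genes, with 1 point per hairpin and the mean ± SD of the 3 arrays. The RCOR1 and HDAC1 probes, the bright HDAC2 probe, the TBL1XR1 probe A_23_P212552 and both NRIP1 probes lie below 0 on every array. KDM1A, SIN3A and the NCOR1 probes A_24_P204214 and A_24_P237661 lie on both sides of 0.

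In the NCoR complex, NCOR1 stayed near the control level and TBL1XR1 depended on the probe. The brightest NCOR1 probe, A_24_P204214, had a Cy3 brightness of 222 to 246 and log2 ratios of 0.11, 0.0049 and -0.0026. Its mean of 0.039 had an adjusted p of 0.670. The probe A_23_P141651 (Cy3 brightness 46.3 to 50.9) had a mean of 0.088. The overlapping probe A_24_P237661 (39.4 to 51.1), which was not well above background in Cy3 on the array of hairpin 2, had a mean of 0.012. None of the 3 NCOR1 probes passed the test. The 2 brightest did not differ from each other by more than the spread between arrays (difference -0.049, 95% interval -0.18 to 0.083, adjusted p 0.575). With median centring in place of loess that difference was -0.29, with an adjusted p of 0.00696 by limma.

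TBL1XR1, the subunit that exchanges corepressors for coactivators, gave the widest split. At the probe that starts at base 1717, the Cy3 brightness was 189, 177 and 179 and the Cy5 brightness was 189, 119 and 155. Its log2 ratio was 0.41, 0.014 and 0.34, high with hairpins 1 and 3 and near 0 with hairpin 2, and the mean of 0.26 ± 0.21 (SD, n = 3 arrays) had an adjusted p of 0.0779. At the probe that starts at base 5554, the Cy3 brightness was 191, 158 and 169 and the Cy5 brightness was 96.6, 81.5 and 82.2. Its log2 ratio was -0.37, -0.26 and -0.31, low with each hairpin, and the mean of -0.31 ± 0.058 (SD, n = 3 arrays) had an adjusted p of 0.0114 over all probes tested. That call ended without the offset (adjusted p 0.0680), with the Feature Extraction ratios (0.116), with a one-sample test per probe (0.224) and without hairpin 3 (0.0706). The first probe stood above the second by 0.79, 0.27 and 0.65, a mean difference of 0.57 with a 95% interval from 0.34 to 0.80. That difference had an adjusted p of 0.0128 by limma, and it was above 0 under each of the 7 alternatives tried, from 0.46 to 0.81. It did not pass in 3 of them: without the offset (adjusted p 0.0818), with the Feature Extraction ratios (0.135) and without hairpin 3 (0.0909). Of the 3562 genes with more than 1 usable probe, 16.7% showed such a difference between their 2 brightest probes, so a split between probes is common on these arrays. This test was added after the values of the probes had been seen.

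The probe A_33_P3348614 was taken for the gene because it was the brighter of the 2, by little, so the direction given for TBL1XR1 rests on that choice: the mean of both probes was -0.029. In the table of gene values that the authors deposited, TBL1XR1 stood at 0.02, -0.15 and 0.03 and HDAC2 at -0.1, 0 and 0.2 for hairpins 1, 2 and 3. Each of these 6 values lay within 0.02 of the mean of the Feature Extraction log2 ratios of the gene's 2 probes, so both splits are averaged out there.

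NRIP1, the corepressor that binds hormone receptors directly, was low at both of its probes. The brighter probe, A_23_P211007, had a Cy3 brightness of 602, 565 and 546 and a Cy5 brightness of 372, 315 and 355. Its log2 ratio was -0.24, -0.27 and -0.031, low with hairpins 1 and 2 and near 0 with hairpin 3, and the mean of -0.18 ± 0.13 (SD, n = 3 arrays) had an adjusted p of 0.0999. The probe A_33_P3251430, with a Cy3 brightness of 225 to 260, had log2 ratios of -0.20, -0.24 and -0.20, close together on the 3 arrays. Its mean of -0.21 ± 0.020 (SD, n = 3 arrays) had an adjusted p of 0.0294 over all probes tested. That call ended without hairpin 2 (adjusted p 0.125) or hairpin 3 (0.138), without the offset (0.140), with no background correction (0.0897) and with robust variances (0.0540), as well as with the Feature Extraction ratios (0.237) and a one-sample test per probe (0.200), 7 of the 11 alternatives tried. The 2 probes differed by 0.033, with a 95% interval from -0.12 to 0.19 (adjusted p 0.749). With the mean of both probes, NRIP1 stood at -0.20 with an adjusted p of 0.0479.

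**Figure D2:**
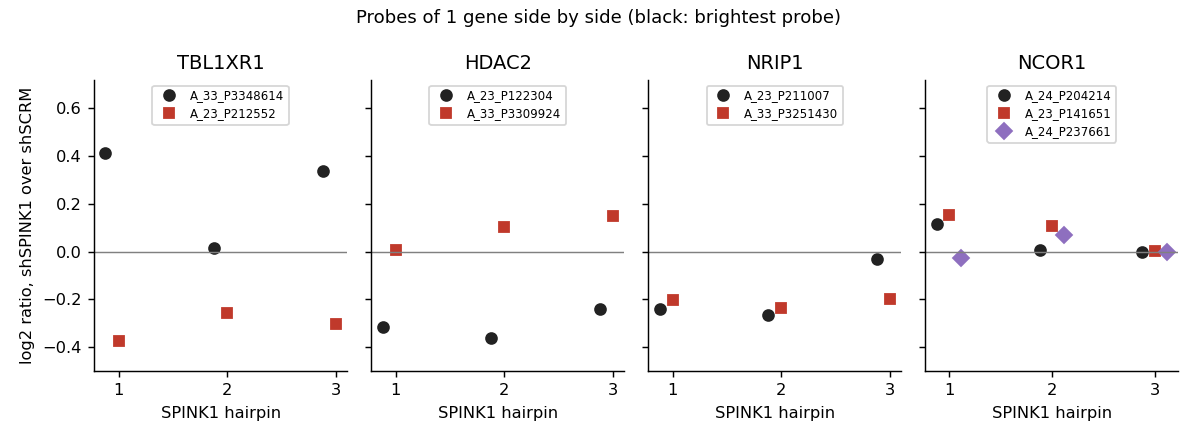
Log2 ratio of shSPINK1 over shSCRM (vertical axis) by SPINK1 hairpin (horizontal axis) for each probe of the 4 genes with more than 1 probe, the brightest probe in black. The 2 probes of TBL1XR1 and of HDAC2 stay apart on every array, those of NRIP1 lie together with hairpins 1 and 2, and those of NCOR1 lie near 0.

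Counted over the 9 genes, 1 (HDAC2) passed an adjusted p of 0.05, against 13.5% of the 17059 genes tested (8.72% lower and 4.77% higher). None was beyond 0.5 in its mean log2 ratio as well, against 0.727% of all genes. The values of 4 of the 9 genes lay below 0 on all 3 arrays (RCOR1, HDAC1, HDAC2 and NRIP1), against 29% of all genes, and those of 2 lay above 0 on all 3 (REST and TBL1XR1), against 21.3%. The median over the 9 genes was -0.032, and over all genes it was -0.011. Counted over probes, 3 of the 14 passed at an adjusted p of 0.05, all lower, against 12.9% of the 21440 probes tested (8.3% lower and 4.59% higher). The values of 6 of the 14 probes lay below 0 on every array, against 28.1% of the probes tested. The 3 probes were those of HDAC2, TBL1XR1 and NRIP1 described above.

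**Figure D3:**
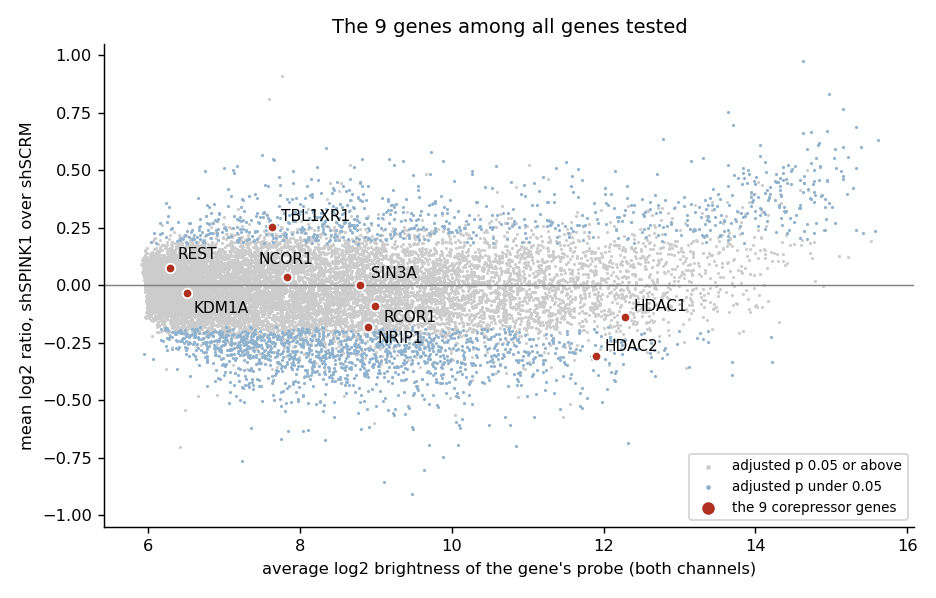
Mean log2 ratio of shSPINK1 over shSCRM (vertical axis) against the average log2 brightness of both channels (horizontal axis) for the genes tested, with the 9 corepressor genes in red. HDAC2 and HDAC1 lie among the bright genes and REST and KDM1A among the dimmest; 2 genes below -1, SPINK1 among them, are outside the vertical axis.

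All 14 probes passed the filter, which asked that at least 1 of the channels be well above background on every array. The Cy5 brightness of REST was 2.1 to 3.13 times its local background and that of HDAC1 252 to 305 times. Brightness depends on the probe and was not compared between genes as a level of transcript.

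**Figure D4:**
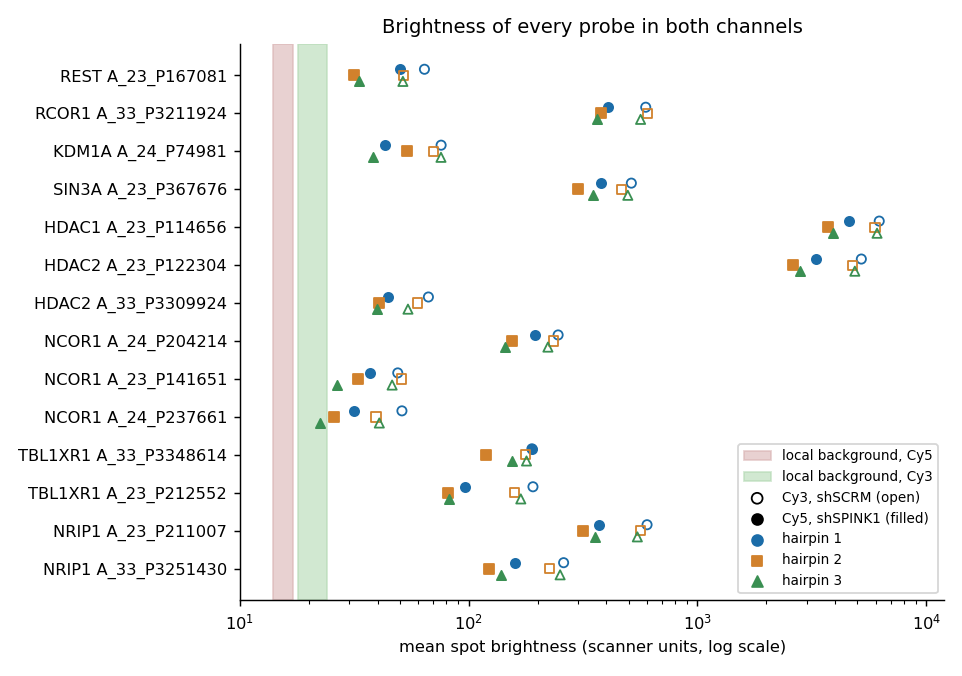
Mean spot brightness in scanner units on a log scale (horizontal axis) of each probe in Cy3 (open points, shSCRM) and Cy5 (filled points, shSPINK1), 1 point per hairpin, with the range of the local backgrounds of these probes shaded. The probes of REST and KDM1A, the second HDAC2 probe and 2 of the NCOR1 probes lie within a few times the background, and those of HDAC1 and the first HDAC2 probe lie at 2620 or above.

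The other subunits and cofactors of these complexes were examined through 6 lists, and 2 more held genes known to be repressed by REST or by androgen. Of 160 listed genes 158 were found on the arrays and 127 were measured. Of these, 16 fell and 3 rose at an adjusted p of 0.05, together 15% against 13.5% of all genes (8.72% lower and 4.77% higher). None was beyond 0.5 in its mean as well. The median over the 127 genes was -0.067 against -0.011 over all genes.

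Among CoREST partners, 1 of 10 measured genes fell and none rose (10% called, against 13.5% of all genes), with a median of -0.060. The gene was MIER1, which builds a CoREST-like complex with HDAC1 and HDAC2. Its brightest probe had log2 ratios of -0.35, -0.56 and -0.38 (adjusted p 0.00829). Its other probe had log2 ratios of 0.39, 0.21 and 0.47, and the test of the difference between the 2 probes gave an adjusted p of 0.00479, so the direction for MIER1 depends on the probe as well. RCOR2, a close relative of RCOR1, stood at -0.30 with an adjusted p of 0.060. ZEB1 and ZEB2 were not well above background.

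All 15 SIN3 partners were measured, with a median of -0.0065, and 13.3% of them were called, against 13.5% of all genes. SIN3B, the paralog of SIN3A, fell, with log2 ratios of -0.42, -0.30 and -0.22 (adjusted p 0.0170). SAP30L, a small subunit that helps to place the complex on chromatin, rose by 0.16, 0.22 and 0.23 (adjusted p 0.0372), and its second probe stood at -0.25, 0.10 and -0.097. In the list of NCoR partners, whose median was -0.091, 1 of 8 measured genes fell (12.5% called, against 13.5% of all genes). It was HDAC7, a class IIa deacetylase, with log2 ratios of -0.43, -0.14 and -0.19 (adjusted p 0.0493). HDAC3, the catalytic subunit of the complex, stood at -0.11 (adjusted p 0.255). TBL1X, the paralog of TBL1XR1, stood at 0.18 (adjusted p 0.10).

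Of 25 measured genes listed as other corepressors of hormone receptors, 4 fell and none rose, with a median of -0.086. The share called was 16%, against 13.5% of all genes. TGIF1, a homeodomain repressor, had log2 ratios of -0.33, -0.37 and -0.44 (adjusted p 0.00809). SIRT1, a NAD-dependent deacetylase, had log2 ratios of -0.20, -0.48 and -0.32 (adjusted p 0.0205). DAXX, a chaperone of histone H3.3 that also represses transcription factors, had log2 ratios of -0.26, -0.26 and -0.22 (adjusted p 0.0205). The values of all 3 genes were below 0 with each hairpin, but the same sign on all arrays was a condition for naming them. CTBP1, which NRIP1 recruits, had log2 ratios of -0.20, -0.22 and -0.18 (adjusted p 0.0384), and its second probe stood at -0.056, -0.16 and -0.21 and did not pass.

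The list of other REST cofactors had 3 falls and 1 rise among 13 measured genes, with a median of -0.10. The share called was 30.8%, against 13.5% of all genes, in a list of few genes. CDYL, a chromodomain corepressor that bridges REST to the histone methyltransferase EHMT2 (G9a), had log2 ratios of -0.37, -0.50 and -0.46 (adjusted p 0.00653). EHMT2 itself had log2 ratios of -0.37, -0.34 and -0.52 (adjusted p 0.00811). Both were below 0 with each hairpin, as the rule for naming listed genes required, and each had 1 usable probe. SMARCE1, a subunit of the SWI/SNF remodeller, had log2 ratios of -0.35, -0.30 and -0.10 (adjusted p 0.0411), and its second probe stood at -0.0016, -0.047 and -0.17 and did not pass. SMARCA4 (BRG1), the ATPase of the same remodeller, rose by 0.13, 0.25 and 0.25 (adjusted p 0.0416). The partner of EHMT2, EHMT1, stood at -0.015 (adjusted p 0.880).

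Genes that act on REST stability or splicing had 3 falls and no rise among 17 measured, with a median of -0.050. The share called was 17.6%, against 13.5% of all genes. CTDSP2 and CTDSPL encode small phosphatases that act with REST and can remove the phosphates that mark it for degradation. CTDSP2 had log2 ratios of -0.51, -0.38 and -0.12 (adjusted p 0.0323), and its second probe had a mean of 0.015. CTDSPL had log2 ratios of -0.17, -0.24 and -0.33 (adjusted p 0.0291). SRRM3, a splicing factor of the kind that makes the short neuronal REST isoform, had log2 ratios of -0.46, -0.31 and -0.10 (adjusted p 0.0413), and its 2 other probes did not pass (means -0.028 and -0.12). SRRM4 and CTDSP1, which are in this list too, stood at -0.050 (adjusted p 0.724) and -0.047 (0.622). The ubiquitin ligase subunit BTRC, which recognises the REST degrons, stood at -0.026 (adjusted p 0.791) and the casein kinase CSNK1D at 0.013 (0.895).

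**Figure D5:**
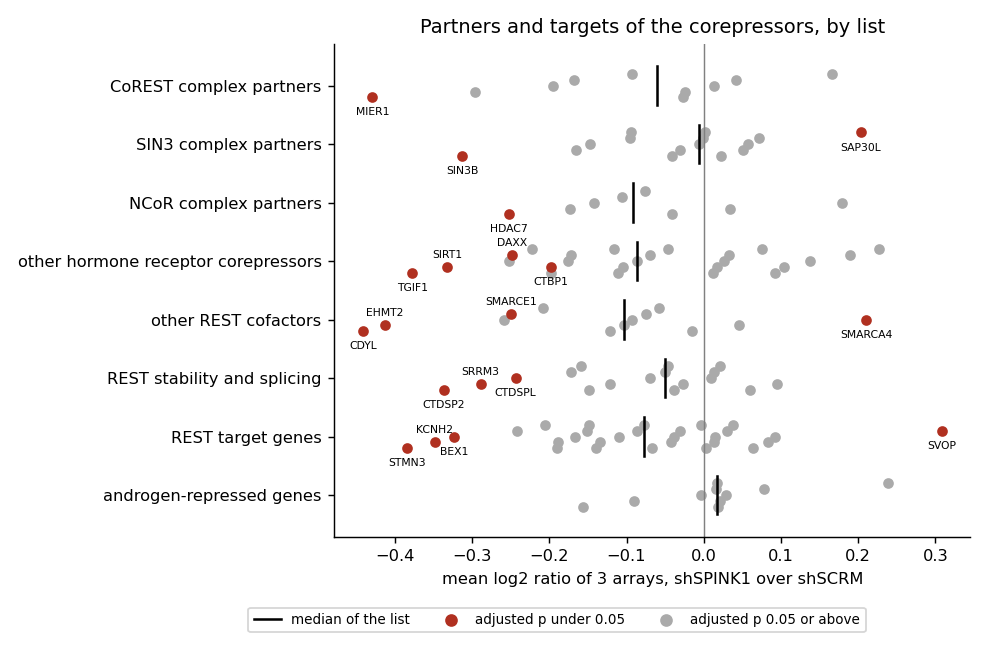
Mean log2 ratio of shSPINK1 over shSCRM over the 3 arrays (horizontal axis) for the measured genes of 8 lists (rows, points spread vertically for sight), with genes at an adjusted p under 0.05 in red and named and the median of each list as a black line. CDYL, MIER1 and EHMT2 are the lowest and SVOP the highest.

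REST target genes are neuronal genes that the repressor is known to bind and silence elsewhere. Of the 52 listed targets 23 were not well above background, the synaptic vesicle gene SYN1 and the glutamate receptor gene GRIA2 among them. Of the 29 that were measured, 3 fell and 1 rose, against 13.5% of all genes called, and the median was -0.078. STMN3, a tubulin-binding protein of neurons, had log2 ratios of -0.47, -0.37 and -0.32 (adjusted p 0.00850). KCNH2, a potassium channel, had log2 ratios of -0.38, -0.32 and -0.35 (adjusted p 0.00854), while its second probe stood at -0.020, 0.024 and 0.038. BEX1, a small brain-expressed protein, had log2 ratios of -0.40, -0.30 and -0.27 (adjusted p 0.0120). SVOP, related to a synaptic vesicle transporter, rose by 0.23, 0.31 and 0.38 (adjusted p 0.0150), and its 2 other probes had means of 0.031 and -0.017. The neuroendocrine markers SYP (-0.17, adjusted p 0.0617), CHGA (-0.11, 0.309) and CHGB (-0.15, 0.106), which are REST targets too, did not pass. ENO2, the other one of the 4 neuroendocrine markers measured, fell (-0.27, adjusted p 0.0311). The Cy3 brightness of the brightest probe was 57.6 for SYP, 64.9 for CHGB, 159 for CHGA and 589 for ENO2. The offset draws the ratios of dim probes toward 0.

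Of the 10 measured genes that androgen is known to repress, 0 passed at an adjusted p of 0.05 by limma, against 13.5% of all genes. In this list 1 gene (MET) had an unadjusted p under 0.05, and the median was 0.018. MET, a receptor tyrosine kinase, was the highest at 0.24 (adjusted p 0.079). SOX2, a factor of stem cells, had log2 ratios of -0.18, 0.019 and 0.15, with a mean of -0.0037 (adjusted p 0.980). Its probe was dim, with an average log2 brightness of 6.21.

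Of 135 other members and listed genes, the 3 whose log2 ratios over the 3 arrays lay nearest to those of REST by Euclidean distance were CSNK1A1 (0.043), GRIN1 (0.061) and NCOR1 (0.082). CSNK1A1, a casein kinase 1, had log2 ratios of 0.16, -0.043 and 0.066. GRIN1, a glutamate receptor subunit, had log2 ratios of 0.14, 0.034 and 0.019. None of the 3 passed (adjusted p 0.525, 0.455 and 0.670 by limma). The probes of REST and GRIN1 were dim, with an average log2 brightness of 6.30 and 6.08, and the offset draws such ratios toward 0.

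The markers of the labelled origin were measured, but so were most of the leukocyte, endothelial and stromal markers. All 9 prostate luminal markers were measured, with HOXB13 at a mean Cy3 brightness of 11500, and none of the 3 basal markers was. Of the luminal markers KRT8 (-0.34) and TMPRSS2 (-0.42) fell and KRT18 (0.35) rose. Of leukocyte, endothelial and stromal markers 8 of 12 were measured, at a Cy3 brightness of 40.7 to 468. The luminal markers KLK2 (190) and TMPRSS2 (331) lay within that range. Of the 8 markers, 0 passed at an adjusted p of 0.05 by limma and 1 (LUM) had an unadjusted p under 0.05. Well above background in Cy5 were 41.3% to 46.8% of gene spots and in Cy3 38.8% to 42.6%, and no gene spot was saturated.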

How the data were processed

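For each array the authors deposited Feature Extraction 11.5.1.1 output on an hg19-annotated design: the intensity of every spot and its local background, not normalized, flags, and a log10 ratio of Cy5 over Cy3 corrected for background and dye. They also deposited log2 ratios per gene name, with column medians of -0.12, -0.17 and -0.2. For the 9 genes they were close to the mean Feature Extraction log2 ratio (Cy5 over Cy3) of the gene's probes, except NCOR1 with hairpin 2 (0.09 against 0.27); how probes were joined is not given in the sources used here. RNA had poly(A) tails added before labelling.

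The intensities went through limma 3.58.1 (R 4.3.3): normexp with an offset of 50, loess within each array, outlier spots (0.203% of values) left out, spots averaged per probe, and the brightest kept probe per gene. The mean log2 ratio of 3 arrays was tested against 0 by the moderated test with Benjamini-Hochberg adjustment over all genes or all kept probes. shSCRM was the control on every array, so its own spread enters no error. The p-values of the moderated test rest on the spread between 3 hairpin lines together with a variance pooled over all genes or probes. The test was checked on simulated data, with changes larger than those of the members and listed genes called here. Changes of their size were not checked. Members and lists were chosen with earlier results of these data known. Named were the members, SPINK1, up to 4 genes per list that passed with the same sign on all arrays, and the 3 genes nearest to REST; other listed genes and markers were chosen after their values were seen. Results for some of the listed genes and markers are not reported here.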

Additional observations from a re-analysis of the deposited data

How the results depend on the processing

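The values rest on 3 arrays, and the offset and the test decide how many genes pass. At an adjusted p of 0.05, 2301 genes passed, 124 of them beyond 0.5, with 1 of the 9 genes, 3 of their 14 probes and 19 listed genes. Without the offset 4 genes passed in all, 4 of them beyond 0.5. The log ratios of Feature Extraction and the deposited table each gave 3 and 3. With a one-sample test per gene in place of the moderated one it was 0 and 0, although 3019 genes, among them 1 of the 9 and 26 listed genes, had an unadjusted p under 0.05. Under these 4 settings 0 of the 9 genes, 0 of their probes (not given by the deposited table) and 0 listed genes passed by limma or by the one-sample test; limma gave an unadjusted p under 0.05 to 2 of the 9 without the offset, 2 with the Feature Extraction ratios and 0 with the deposited table. With robust variances 1320 genes and 11 listed genes passed, with no background correction 2 of the 9, and with the mean of a gene's probes 12 listed genes. Leaving out each array gave 468 to 3176 genes, 127 to 225 of them beyond 0.5, 0 to 1 of the 9 genes, 0 to 3 probes and 4 to 24 listed genes; the lowest counts came without hairpin 3, where 468 genes passed, and the highest without hairpin 1.

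With each array centred on its median in place of loess, the median of all genes stood at -0.23. Then 10431 genes passed, 1967 of them beyond 0.5, with 6 of the 9 genes, 8 probes and 100 listed genes, and 99.1% of the calls were lower, against 64.6%. REST (-0.019), SIN3A (-0.34), NCOR1 (-0.26 at its brightest probe and -0.017 at A_24_P237661), TBL1XR1 (-0.028), the second HDAC2 probe (-0.031) and the difference of the NRIP1 probes (-0.017) were then below 0. Of these SIN3A and NCOR1 passed as lower (adjusted p 0.00186 and 0.00817), as did RCOR1 (-0.44), HDAC1 (-0.47), NRIP1 (-0.52) and HDAC2 (-0.64). Relative to the median of all genes in that setting, REST stood at 0.21, TBL1XR1 at 0.20, NCOR1 at -0.030, SIN3A at -0.11, RCOR1 at -0.21, HDAC1 at -0.24, NRIP1 at -0.30 and HDAC2 at -0.42.

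HDAC2 did not pass without the offset (-0.34), with the Feature Extraction ratios (-0.27), with the mean of its probes (-0.11), with the one-sample test (-0.31) or without hairpin 2 or 3, and stood at 0.033 in the deposited table; over the arrays left out it ran from -0.34 to -0.28. TBL1XR1 passed without background correction (0.36) and without hairpin 2 (0.38, range 0.18 to 0.38), and was below 0 with the mean of its probes (-0.029) and in the deposited table (-0.033). NRIP1 passed with the mean of its probes (-0.20). Over the arrays left out KDM1A ran from -0.16 to 0.033, SIN3A from -0.037 to 0.038, the NCOR1 probe A_24_P237661 from -0.015 to 0.033 and the difference of the NRIP1 probes from -0.035 to 0.070; with the Feature Extraction ratios that difference was -0.0012. The probe differences of TBL1XR1 and HDAC2 kept their direction but did not pass without the offset (adjusted p 0.0818 and 0.0806), with the Feature Extraction ratios (0.135 and 0.135) or without hairpin 3 (0.0909 and 0.0752). The cause of these changes was not tested. Each log2 ratio pairs a hairpin line with the control on the same array. No further pairing was possible because each array holds 1 hairpin and a number names 1 array.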
